A study of Andropogon gerardi with 36 samples.

Results

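The tubulin genes tua4 and TUBB2 were followed through 34 arrays of big bluestem (Andropogon gerardi), a dominant tallgrass prairie grass whose RNA was hybridised to spotted maize arrays. The members were all probes that carry tua4 or TUBB2 as their only gene symbol in the platform's annotation. That rule gave 14 of the 19200 probes, 12 of tua4 and 2 of TUBB2, and used no measured value. Probe 5397 carries the symbol tua4 together with a locus number, LOC100037751, and was not counted as a member.

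Microtubules are hollow polymers built from dimers of alpha-tubulin and beta-tubulin, and both proteins are encoded by families of very similar genes in plants. The symbol tua4 belongs to an alpha-tubulin gene of maize, and TUBB2 names a beta-tubulin. In grass leaves and stems, microtubules guide the deposition of cellulose during cell expansion, and they form the spindle and the phragmoplast, which builds the new wall of a dividing cell. Transcripts of many plant tubulins are therefore more abundant in growing than in mature tissue. The probes were made for maize, so a value is the signal of whichever bluestem transcripts bound, and members of one tubulin family may share it.

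The plants grew in 12 plots under rainout shelters at Konza Prairie, where effects of warming and of soil moisture were under study. Each array set RNA of 1 plot in Cy5 against RNA of its partner plot in Cy3, and the plots met in 6 fixed pairs. Plots 2 and 3 gave 8 arrays, plots 4 and 5 gave 7, and plots 6 and 9 gave 8, sampled in June, in the sets named JulyA and JulyB, and in August. Plots 7 and 10 gave 4 arrays, plots 11 and 12 gave 4, and plots 13 and 15 gave 3, all from June or August. Subplot 1 met subplot 1 on 16 arrays, and subplots 2 and 4 met subplots 2 and 4 on 18. Among these 18, subplot 4 of plot 2 met subplot 2 of plot 3, and subplot 2 of plot 4 met subplot 4 of plot 5. In plots 6 and 9 and plots 7 and 10 subplot 4 met subplot 4. In plots 11 and 12 and plots 13 and 15 subplot 2 met subplot 2. On these arrays of plots 2 and 3 and plots 4 and 5, plot and subplot differences cannot be told apart. The sources used here do not give the treatment of each plot and subplot, the tissue or the age of the plants. The groups below are therefore plot pairs, sampling times and subplots. Many arrays of a pair repeat a plant code, and nothing in the labels says which arrays are biologically separate, so p-values may be too small.

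All values are log2 ratios with the lower-numbered plot first, which changed the sign of 5 arrays with that plot in Cy3. A value of 1 is a 2-fold difference. Whether the deposited ratio is Cy5 over Cy3 or the reverse is unstated, so a sign can be set against the sign of another array but names no plot as the higher. The number of probes measured ran from 2199 to 9530 per array, median 5357. A ratio within an array gives no level of tubulin transcript in a single plot. In such tissue RNA, fewer cells that express tubulin and less tubulin RNA per cell cannot be told apart.

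Tubulin was measured on most arrays, through different probes. Of 476 possible values of the 14 probes, 158 were present, which is 33.2%, against 28.7% for all probes and 46.2% for probes with 1 symbol. The tua4 probes gave 143 values and covered 33 arrays. TUBB2 gave 15 values on 13 arrays, with both of its probes on 2. The June array of plots 11 and 12 with subplots 2 and 4 had none of the 14.

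Probe 146 of tua4 was the most often measured, on 29 arrays, followed by probe 1662 on 22 and probes 900 and 1372 on 18 each. Probe 11302 had a value on 16 arrays and probe 10485 on 14. The remaining 6 tua4 probes were sparse: 14365 on 8, 10189 on 7, 14932 on 5, 14715 on 4, and 17753 and 18687 on 1 each. The TUBB2 probes 6113 and 16181 had 8 and 7 values. Absence of a value says only that the spot is blank in the deposited table, and the sources used here do not give the filter behind the gaps.

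The size of the tubulin ratios was set beside that of all values, without a test. Their median size, without regard to sign, was 0.37, and that of all values was also 0.37. A size over 1 was seen in 19 tubulin values, 12.0%, where 10.9% of all values passed it. On their own arrays, 9 tubulin values (5.70%) lay above the 95th percentile of size.

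Detection was compared between sampling times and between subplots. In June, 24.0% of the possible tubulin values were present, beside 22.1% of those of all probes. JulyA arrays held 28.6% and 22.4%, JulyB arrays 40.5% and 26.8%, and August arrays 40.9% and 39.9%. The median June array held 3 tubulin probes, the median of JulyA was 5, that of JulyB 6.5 and that of August 6. The tubulin share lay above that of all probes at each time, and the widest gap was in JulyB, on 6 arrays. Over all times it was below that of probes with 1 symbol, 33.2% against 46.2%, and the latter was not split by time.

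Probe 10485 had a value on 8 of 11 August arrays and on 1 of 11 in June. Probe 1662 was present on 10 in August and 4 in June, and probe 900 on 9 and 3. In contrast, probe 146 had 9 August and 10 June values, probe 1372 had 5 and 6, and the TUBB2 probe 6113 had 3 and 3. A two-sided Fisher's exact test of each probe called 387 of 15339 probes (2.52%) after adjustment over all of them, 386 of these with more August arrays. None of the 13 testable tubulin probes was called. The smallest adjusted p was 0.0989, for probe 10485, and the next were 0.186 for probe 1662 and 0.194 for probe 900. With plot pair as a stratum 0 of 15338 probes were called, although 2924 had an unadjusted p under 0.05. The smallest p this stratified exact test allows is 8.57e-05. A single probe at that value could not be called on its own, and a call needed a group of probes near it. The June arrays also held fewer values in general, a mean of 4249 against 7655 in August, and the part of this in the tubulin counts was not tested.

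Between subplots, tubulin detection was close to even. Subplot 1 arrays held 33.5% of the possible tubulin values and subplots 2 and 4 held 32.9%, beside 29.1% and 28.5% of all probes. Probe 146 was present on 14 of 16 and 15 of 18 arrays. Probe 10485 had the widest split, 4 arrays against 10, with an adjusted p of 1 in Fisher's exact test. Across all probes that test called 0 of 16112 (0%), with 181 at an unadjusted p under 0.05, and 0 with pair as a stratum, with 163.

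The next question was whether partner plots differed in tubulin signal. Probe 146 was the only member with enough values (28 arrays, and 2 in each pair) to enter the fit over all 6 pairs, so it is given array by array.

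In plots 2 and 3, probe 146 read 0.16 and 0.11 on the June arrays, -0.99 and -0.84 on those of JulyA, and 0.01 in August. The pair's 2 JulyA arrays lay apart from the other 3. In plots 4 and 5 the June arrays read -0.29 and 1.17, those of JulyA -1.04 and -0.37, those of JulyB 0.13 and -0.98, and the August array 0.18. The values of this pair ran in both directions within June and within JulyB, where the first array was of subplot 1 and the second of subplots 2 and 4. In plots 6 and 9 the June values were -0.45 and -0.88, those of JulyA -0.34 and -0.15, those of JulyB -1.40 and 0.09, and the August value 0.26.

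Plots 7 and 10 gave 0.37 and 0.39 in June and -0.23 and 0.37 in August for probe 146. Plots 11 and 12 gave -0.11 in June and 0.49 and 0.28 in August. The June array of plots 13 and 15 held the highest ratio of this probe, 1.42, and the August arrays read -0.34 and 0.40. In all 6 pairs the values reached both sides of 0, and the ranges of the pairs overlapped.

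The moderated fit of all pairs with limma, with a dye term and a random block by pair and subplot, gave probe 146 a difference of -0.45 ± 0.39 (SE) in plots 2 and 3. The fitted difference was -0.31 ± 0.36 in plots 4 and 5 and -0.56 ± 0.36 in plots 6 and 9. Plots 7 and 10 had 0.22 ± 0.28, plots 11 and 12 had 0.07 ± 0.45, and plots 13 and 15 had 0.37 ± 0.45. Over the 6 pairs the F test of limma gave an adjusted p of 0.801. This test called no probe of any gene, 0 of 1668 (0%), although 123 were under 0.05 before adjustment. With the ratios as deposited and no dye term 56 probes were called (3.36%), and probe 146 was not among them. The dye term of probe 146 came from plots 7 and 10 alone, whose August value of -0.23 entered it. No other pair had a value of this probe with its lower-numbered plot in Cy3. Fitted differences of the other pairs therefore depend on that pair. Turned ratios without a dye term gave -0.31, -0.16, -0.41, 0.22, 0.22 and 0.51, in the order above. Probe 146 thus passed no test of a plot difference, with standard errors of 0.28 to 0.45 in the fit with the dye term.

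The other frequent tua4 probes were too sparse for that fit. Probe 1372 ranged from -1.11 to 1.80 and was positive on 9 of 18 arrays. In plots 2 and 3 it read 0.19, -0.77, -0.49, -0.53 and 0.28, and in plots 4 and 5 it read 1.05, -0.03, -0.35, 0.19 and -0.79. The 3 arrays of plots 13 and 15 gave 1.80, 0.12 and 0.38, the only pair in which this probe kept 1 sign.

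Probe 900 ranged from -0.74 to 1.59 and was positive on 10 of 18 arrays. Its 7 values in plots 2 and 3 lay between -0.74 and 0.98 with a mean of -0.0036 ± 0.53 (SD), and the 4 of plots 4 and 5 between -0.59 and 1.59. Each of its 3 JulyB ratios was positive as turned, at 0.98, 0.27 and 1.59, and the first of these turns negative as deposited. Probe 1662 had the narrowest spread of the 4, an SD of 0.36 over 22 arrays against 0.64 to 0.70 for the other 3. Its values lay between -0.60 and 0.33 except on a June array of plots 7 and 10, at 1.26.

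Each pair was also fitted alone, which admitted probes with at least 3 values in that pair, a choice made after the data had been seen. This gave 25 tests over 8 of the 14 members, and none was called with limma. The calls over all probes were 0% in 5 of the pairs and 0.118% in plots 11 and 12. For probe 10485 in plots 2 and 3 the JulyA ratios were -0.75 and -1.09 and those of August -0.48 and -0.85, all 4 on the same side of 0. Their fitted mean was -0.79 ± 0.25 (SE), with an adjusted p of 0.998 with limma. As deposited, 1 of the 4 changes sign and the mean was -0.55 ± 0.28, with an adjusted p of 0.424. Probe 14365 in plots 7 and 10 read 0.85, 1.46 and 0.23, with a mean of 0.85 ± 0.30 and an adjusted p of 0.9998 with limma. As deposited the 1.46 is -1.46, which works against the other values, and the mean was -0.13 ± 0.40. The TUBB2 probe 16181 could be fitted in plots 4 and 5, where its mean over 3 arrays was -0.57 ± 0.37 with an adjusted p of 0.779.

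As a gene, tua4 was summarised by the mean of its measured probes on each array, without a test. Ordered by their means over arrays, the pairs ran from plots 2 and 3 at -0.27 ± 0.26 (SD, n = 8) over plots 6 and 9 at -0.15 ± 0.37 (n = 8) to plots 11 and 12 at -0.07 ± 0.18 (n = 3). Then came plots 4 and 5 at 0.01 ± 0.52 (n = 7), plots 7 and 10 at 0.24 ± 0.07 (n = 4) and plots 13 and 15 at 0.28 ± 0.61 (n = 3). Neighbours in this order differed by less than the SD of either pair, apart from plots 4 and 5 beside plots 7 and 10. There the mean of plots 4 and 5 lay more than the SD of plots 7 and 10 below that pair, though within its own wider SD. The sign of each pair's mean follows plot numbers alone, so the order of the pairs has no meaning beyond that choice. Plots 7 and 10 had the most even means, 0.29 and 0.28 in June and 0.25 and 0.14 in August. The probes behind each of these means ran in both directions. For the mean of 0.25, 1 probe was positive and 3 were negative, from -0.23 to 1.46. For the mean of 0.28, 3 were positive and 2 negative, from -0.51 to 1.26. The evenness of the means holds with the lower-numbered plot first, and the deposited ratios of this pair averaged -0.02. Since 2 of its 4 arrays have plot 7 in Cy3, a steady plot difference would cancel in the deposited average. In plots 2 and 3, 7 of 8 arrays had a negative tua4 mean as turned, and 4 of 8 as deposited.

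TUBB2 had array means of -1.76 and 0.50 in plots 2 and 3, and of -0.89, -0.17, 0.05 and -1.34 in plots 4 and 5. In plots 6 and 9 its 3 means were 0, -1.44 and -0.02, and in plots 13 and 15 they were 0, -0.74 and 0.17. Plots 7 and 10 gave a single value of -0.35, and plots 11 and 12 gave none. The pair means of TUBB2 were all negative, though the sign in a pair follows plot numbers alone. They ran from -0.63 ± 1.60 (SD, n = 2) in plots 2 and 3 to -0.19 ± 0.48 (n = 3) in plots 13 and 15. The SDs were larger than the means in each of the 4 pairs with 2 or more arrays.

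Sampling time was examined within pairs, since the June and August arrays came from all 6 pairs and the July arrays from 3. Probe 146 was negative on all 6 JulyA arrays, with a mean of -0.62 ± 0.38 (SD). The mean was 0.19 ± 0.70 (n = 10) for June, -0.54 ± 0.77 (n = 4) for JulyB and 0.16 ± 0.29 (n = 9) for August, and the JulyA range overlapped those of the other times. These means pool different sets of pairs, whose signs follow plot numbers alone. The JulyB values came only from plots 4 and 5 and plots 6 and 9, so time and pair are mixed in them. All 6 JulyA arrays carried the lower-numbered plot in Cy5. Their medians over all probes lay between -0.03 and 0.03. Probe 1372 was negative on its 3 JulyA arrays as well, between -0.49 and -0.03, whereas probe 1662 read 0.02, -0.22 and 0.06 and probe 900 read -0.23, 0.16 and -0.09. The mean of the tua4 probes was -0.31 ± 0.23 (SD, n = 6) in JulyA, negative on 5 arrays. It is not separate from probe 146, which was the only tua4 probe on both JulyA arrays of plots 6 and 9. On the JulyA array of plots 4 and 5 with subplot 1, the mean of -0.27 joined probe 146 at -1.04 with 3 probes between -0.09 and 0.06.

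The change of probe 146 from June to JulyA was -1.05 ± 0.54 (SE) in plots 2 and 3, with an adjusted p of 0.680 with limma. It was -1.14 ± 0.54 in plots 4 and 5 and 0.42 ± 0.54 in plots 6 and 9, with adjusted p of 0.999 and 0.906. The size in plots 4 and 5 depended on the June arrays: it was -1.86 without that of subplot 1 and -0.42 without that of subplots 2 and 4. In plots 6 and 9 it was 0.61 and 0.23 without the same June arrays. None of the 3 contrasts called a probe among 1637, 1632 and 1647 tested (0% each), and 135, 77 and 119 probes had an unadjusted p under 0.05. Probe 146 had no JulyB value in plots 2 and 3 and so did not enter the joint F test over the 4 times, whose calls numbered 0 of 1393 (0%; 127 probes were under 0.05 before adjustment).

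From June to August the plot difference of probe 146 moved by -1.40 ± 0.65 (SE) in plots 13 and 15, from 1.42 on 1 array to -0.34 and 0.40 on 2. In plots 6 and 9 the change was 0.91 ± 0.65, from 2 negative June values to 1 positive value in August. Time and subplot are mixed in both changes. In plots 13 and 15 the June array was of subplots 2 and 4, and without the August array of subplot 1 the change was -1.02. The August value of plots 6 and 9 was of subplot 1, and without the June array of subplots 2 and 4 the change was 0.71. The other 4 pairs lay between -0.31 and 0.49. Over the 6 pairs the adjusted p of the F test was 0.998 with limma. Its calls over all probes were 0 of 1194 (0%; 55 were under 0.05 before adjustment), and 6 (0.503%) with the ratios as deposited and no dye term.

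Subplot 1 arrays were set against arrays of subplots 2 and 4 within each pair. Which subplots met on the latter arrays differed between pairs. For probe 146 the difference was negative in each of the 6 pairs, though the sign in a pair follows plot numbers alone. It ran from -1.25 ± 0.76 (SE) in plots 13 and 15 to -0.09 ± 0.76 in plots 11 and 12, and no standard error was below 0.47. In plots 7 and 10 the sign turns with the ratios as deposited and no dye term, to 0.31. With arrays of a pair matched by sampling time, plots 11 and 12 turned to 0.21 ± 0.86 and plots 13 and 15 moved to -0.74 ± 0.86. Leaving out a single array turned the sign in 3 of the pairs. The adjusted p of the F test was 0.9999 with limma, and its calls over all probes were 0 of 1583 (0%; 42 were under 0.05 before adjustment). Over all arrays the tua4 mean was -0.15 ± 0.34 (SD, n = 16) for subplot 1 and 0.04 ± 0.44 (n = 17) for subplots 2 and 4. Both means pool pairs whose signs follow plot numbers alone.

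The 12 tua4 probes carry the same symbol, so it was asked whether they gave the same answer on an array. On 30 arrays at least 2 tua4 probes had values, and on 4 of these all of them had the same sign. The range between the lowest and the highest tua4 probe of an array had a median of 1.12 and reached 2.57. On that JulyB array of plots 4 and 5 with subplots 2 and 4, probe 900 read 1.59 while probes 146, 1372, 10485 and 11302 read -0.98, -0.79, -0.80 and -0.74. Probe 1662 stood between them at -0.19.

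Agreement of probe pairs was measured as the uncentred correlation of their log2 ratios, which is the same whichever way each array is turned. Within tua4 its median was 0.151 over the 16 probe pairs that shared at least 8 arrays. For probes of other genes with a common symbol the median was 0.766 over 27791 pairs, most of them from 1 gene, MNB1b, and 0.513 over 2650 pairs without that gene. Probes with different symbols had a median of -0.0127. Of 92 genes with at least 3 such probe pairs, tua4 ranked 21 from the lowest. The values are descriptions over shared arrays that also share plots and plants, so no p is given.

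This low median joined probes of different behaviour. Probes 146 and 1372 had a correlation of 0.809 over 17 arrays (Pearson 0.820, Spearman 0.679) and the same sign on 13 of them. Without the 2 arrays farthest from the median of probe 146 it was 0.663. Both probes were high on the June array of plots 13 and 15, at 1.42 and 1.80, and on the June array of plots 4 and 5 with subplots 2 and 4, at 1.17 and 1.05. Both were low on the JulyB array of plots 6 and 9 with subplot 1, at -1.40 and -1.11. Of 25269 pairs of probes with different symbols that shared 17 arrays, 0.0277% reached as high a value, read here as a description because the pair was picked from 27.

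Probes 11302 and 10485 lay on the same side. The correlation was 0.733 between 1372 and 11302 (Pearson 0.714, Spearman 0.827, 11 arrays) and 0.607 without the 2 farthest arrays. It was 0.722 between 10485 and 11302 over 8 arrays, with a Pearson value of 0.556 and a Spearman value of 0.262. Some of these links rested on few arrays. The correlation between 146 and 11302 was 0.527 over 14 arrays and 0.151 without the 2 farthest. Between 1372 and 10485 it went from 0.429 over 9 arrays to 0.0447, and between 146 and 10485 from 0.566 over 12 arrays to 0.339.

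Probes 900 and 1662, both often measured, did not share this pattern. Probe 900 had a correlation of -0.0290 with probe 146 over 16 arrays (Pearson 0.0498, Spearman 0.362) and of -0.0321 with probe 1372 over 12. Its sign matched that of probe 146 on 11 of 16 arrays. Leaving out the 2 farthest arrays gave -0.117 with probe 146 and 0.630 between 900 and 1372, so that last pair depends on 2 arrays. Probe 1662 had 0.0804 with probe 146 over 20 arrays (Pearson 0.0497, Spearman -0.0421) and -0.262 with probe 900 over 16. Its median size was 0.16, against 0.37 for probe 146.

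The beta-tubulin probe 16181 went with the alpha-tubulin probe 146 on each of the 7 arrays they shared. In the order of probe 146 first, the values were -0.84 and -1.76 on a JulyA array of plots 2 and 3, and -1.04 and -0.89 on one of plots 4 and 5. They were -0.98 and -1.34, and 0.13 and 0.53, on the JulyB arrays of plots 4 and 5, and -1.40 and -1.44 on one of plots 6 and 9. The August arrays of plots 13 and 15 gave -0.34 and -0.41, and 0.40 and 0.17. The sign was the same on 7 of 7 arrays, and the 4 arrays with probe 146 below -0.8 were the 4 with probe 16181 below -0.8.

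The uncentred correlation of 146 and 16181 was 0.937 (Pearson 0.882, Spearman 0.714), and 0.950 without the 2 farthest arrays, with Pearson at 0.618. Among 49207 pairs of probes with different symbols and 7 shared arrays, 0.0386% were as high, again a description, since this pair had the highest value of the 27. Probe 16181 also had 0.859 with probe 1372 over 6 arrays and 0.631 with probe 1662 over 7, but -0.379 with probe 900 over 6. These values depended on few arrays. Without the 2 farthest they were 0.278 with probe 1372, 0.0786 with probe 1662 and 0.0361 with probe 900. The other TUBB2 probe, 6113, had 0.108 with probe 146 over 7 arrays and -0.246 with probe 1372 over 6. The TUBB2 probes met on 2 arrays, reading -0.43 and 0.53 on 1 and -1.07 and -0.41 on the other for 6113 and 16181. As gene means, tua4 and TUBB2 had 0.532 over 13 arrays (Pearson 0.520, Spearman 0.410), with the same sign on 7.

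The sparse probes added single observations. Probe 14365 ranged from -1.31 to 1.46 over 8 arrays and was positive on 6. Probe 10189 ranged from -1.33 to 0.57 over 7, none of them from June or JulyA. Probe 14715 was negative on its 4 arrays as turned, between -0.44 and -0.15, and probe 14932 ranged from -0.95 to 0.40 over 5. The single values of 17753 and 18687 were 0.49 and 0.38.

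Whole numbers could be recovered behind the ratios: 157 of the 158 tubulin values matched, to within 6e-10, the log10 of some fraction whose denominator is at most 5000. Reduced to lowest terms, the smaller number had a median of 196 for probe 146 and 109 for probe 1662, against 81 over all probes. For probes 1372, 900, 10485 and 11302 it was 55, 47.5, 32.5 and 32. Reduced numbers are lower bounds of the originals, and the sources used here do not say what they counted.

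The genes most like tua4 were those with the highest uncentred correlation of array means among 191 genes that shared at least 20 arrays with it, for which the median was 0.0497. They were LOC542418 at 0.548 over 30 arrays, mbd105, a methyl-CpG-binding domain gene, at 0.544 over 28, and LOC100037751 at 0.489 over 26. TUBB2 shared too few arrays to be a candidate, and no gene could be ranked for TUBB2. LOC100037751 is the locus whose number stands beside tua4 on probe 5397. That probe, with 11 values, had 0.771 with the LOC100037751 probe 9744 and 0.701 with 6066 over 9 arrays each, but 0.183 with their companion 8108 over 9. With tua4 probes it had 0.518 for 146 over 11 arrays, 0.280 for 10485 over 8 and -0.203 for 1662 over 10. The probes of LOC100037751 differed among themselves in their agreement with tua4. Probe 9744 had 0.730 with tua4 probe 146, 0.760 with 1372, 0.834 with 10485 and 0.798 with 11302, over 10 to 14 arrays, and -0.554 with probe 900 over 10. Probe 6066 had 0.0636, 0.105, -0.348 and 0.266 with the same 4 probes, over 10 to 15 arrays, and 0.185 with 900. Probe 8108 had 0.583 with 146 and 0.614 with 10485, but 0.0419 with 1372 and 0.0474 with 11302, and -0.773 with 900. The values of 4056 were 0.617, 0.631, 0.842 and 0.355, and -0.840 with 900. Other genes of these kinds were searched for by gene symbol alone. Beyond probe 5397 no further tubulin symbol was found. Lists of microtubule-associated, actin cytoskeleton, cell wall growth and cell division genes matched 0 probes. Most search words of these lists were full names, such as actin, kinesin or cyclin, so abbreviated symbols could not match. The empty lists therefore do not show that such genes are missing from the array. Genes annotated only by a locus number could not be matched by symbol either, so other tubulin or cytoskeleton genes may be among them.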

How the data were processed

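The deposited values are log10 ratios of the channels of 2-colour arrays. Per the labels, RNA was extracted with RNeasy columns and labelled with a Genisphere kit. The sources used here do not give scanner, background correction, normalization, filters or direction of the ratio. That they are log10 ratios was settled from the values: on an array, 81.3% to 99.0% matched the log10 of a fraction with a denominator of at most 1000 (tolerance 6e-10), and at most 0.0210% did so after a small shift. Values were converted to log2. Array medians lay between -0.11 and 0.12. Of 36 arrays, 1 was empty and 1 carried a single plant code in both channels; neither was compared.

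Probes measured on 28 or more arrays, and for plot differences on 2 in each pair, were fitted with limma 3.58.1 and statmod 1.5.0 in R 4.3.3, with pair or cell means and a dye term, and, except for subplots, a random block. The block joined arrays of the same pair and subplots, not arrays that repeat a plant code. With single arrays left out, its correlation in the plot-difference fit lay between -0.0933 and -0.0507. F tests took the covariance of the arrays a probe was measured on, and calls are Benjamini-Hochberg adjusted p under 0.05 over all probes tested. Presence of values was tested with Fisher's exact test in scipy 1.17.1. The fits, presence tests and agreement measures were tested on simulated data. Alternatives were the deposited direction, no block, no dye term, at least 17 arrays, centring on array medians, strata, arrays matched within pairs (added after the data had been seen), other agreement measures and leaving out each array. Every member was to be named, and the 3 most alike genes. The members and gene lists were chosen with earlier results of these data known. Signal over background is not in the files, so the number of arrays limits the precision.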

Additional observations from a re-analysis of the deposited data

Results flagged for a closer look

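Among 19 sets of 4 to 8 arrays of a pair examined for a single array far from the rest, 2 held one, where chance gives about 1 in 20. In plots 7 and 10, tua4 probe 146 read -0.23 on the August array of subplot 1, beside 0.37 to 0.39 on the other 3. That array has the lower-numbered plot in Cy3. As deposited, the sign of this value and of 1 other turns. In plots 4 and 5 the tua4 mean was 1.11 on the June array of subplots 2 and 4, from probes 146 and 1372, while the other 6 arrays lay between -0.37 and 0.14.

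Probe 10485 of tua4 had only positive values in plots 6 and 9, at 0.51, 0.17 and 0.30, and only negative ones in plots 2 and 3 (4 arrays) and in plots 4 and 5 (3 arrays). The means of plots 6 and 9 and of plots 2 and 3 differed by 1.12, and those of plots 6 and 9 and of plots 4 and 5 by 0.77. These differences were not tested, and they depend on plot numbers, which alone set the sign within each pair. As deposited, 1 of the 4 values of plots 2 and 3 becomes positive.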

How the results depend on the processing

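A paired fit, with arrays matched within their pair by subplots (for times) or by time (for subplots) as a fixed replicate block, was added after the data had been seen. It called 0 probes for August minus June, the 4 times and subplots, as without it (36, 68 and 34 under 0.05 before adjustment with limma), and turned probe 146 to 0.21 for subplots in plots 11 and 12. With ratios as deposited and no dye term, 56 probes were called for the 6 plot pairs and 6 for August minus June, against 0 of each. Probe 146, the only tubulin probe in these fits, was not among them. Probe 146 then reversed in plots 7 and 10, to 0.31 for August minus June and 0.31 for subplot 1 minus subplots 2 and 4. The tua4 mean of plots 7 and 10 moved to -0.0228 as deposited, and that of plots 11 and 12 to 0.22 with probe 146 alone. A steady plot difference would cancel in the deposited average, as 2 of the 4 arrays of plots 7 and 10 have plot 7 in Cy3. The 387 probes with unequal August and June presence became 0 with pair as a stratum, and 592 to 1308 on leaving out each array in turn. The adjusted p just past the threshold was shared by many probes. Leaving out arrays gave 0 to 32 calls for the pairs (32 without the August array of plots 11 and 12 with subplots 2 and 4) and 0 to 2 for August minus June (1 without either August array of plots 2 and 3, 2 without either of plots 7 and 10). Over the 4 times it gave 0 to 1 (1 without either June array of plots 11 and 12). For probe 146 it reversed single differences: -0.0825 to 0.24 in plots 11 and 12 and -0.12 to 0.77 in plots 13 and 15; -0.99 to 0.45 in plots 4 and 5 and -0.62 to 0.0031 in plots 7 and 10 for August minus June; -0.73 to 0.75 in plots 6 and 9 for JulyB minus June; -0.75 to 0.40, -0.46 to 0.13 and -0.38 to 0.21 for subplots in plots 2 and 3, 6 and 9, and 11 and 12. Its adjusted p was at least 0.419 in all settings run. The median agreement within tua4 stayed between 0.0416 and 0.169 under the other measures and numbers of shared arrays. The cause of these changes was not tested.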

Other observations

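One array was labelled with a single plant code for Cy5 and Cy3 alike and stands outside the comparisons. It held values for 13515 probes, with a median log2 ratio of -0.40, and 46.6% of them were over 1 in size. On it, 11 of the 14 tubulin probes had a value, from -1.58 to 1.77 with a median of -0.53, and 5 were over 1 in size. Probe 146 read 0.74, probe 1372 read 0.27 and probe 11302 read 1.77. Probes 10485, 900 and 1662 were negative, at -0.53, -0.24 and -0.86.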
